A study of Arabidopsis thaliana with 9 samples.

Results

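The baseline transcript profile of wild-type Arabidopsis thaliana seedlings was taken from 3 Affymetrix ATH1 arrays, which are all the arrays titled as the wild-type control among the 9 of the study. Each array was hybridised with RNA of whole Col-0 seedlings, aged 10 days, which had no hyperphyllin but did grow with the solvent DMSO at 1% (v/v), so that they are solvent controls although one label calls them untreated. Seeds stood about 5 to a well in 96-well plates, in half-strength liquid Murashige and Skoog medium that held sucrose at 1%, and were kept at 26 °C under 16 h light and 8 h dark. The seeds were stratified for 2 days at 4 °C. The other 6 arrays of the study, from hyperphyllin-treated wild type and from the amp1-13 mutant, were not used. The labels call the 3 samples biological replicates and do not say how many seedlings were pooled for each.

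All 22746 probe sets other than the 64 control probe sets were ranked by their mean log2 signal over the 3 arrays and by the standard deviation (SD) over the same arrays. Of these probe sets 13513 name 1 gene, which gave 13355 genes, and where a gene had more than 1 probe set the brightest stood for it. The brightest decile began at a mean log2 signal of 9.47, the median was 6.48, and the dimmest 25% ended at 4.40. Signal depends on the probes as well as on the transcript, so that ranks are ranks of signal and not of RNA amount. Among the 147 genes with more than 1 probe set, the brightest and dimmest differed by a median of 1.73 log2 units. In whole seedlings, fewer cells of a type and less RNA per cell cannot be told apart. With 1 group there was no test, and every value below is a description.

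A seedling of this age has green cotyledons and first leaves, a root system and an active shoot meristem, and has not yet flowered. Photosynthesis genes are divided between the nuclear genome and the plastid genome, whose genes are copied as long polycistronic units by plastid RNA polymerases. In the Brassicaceae, roots and young seedlings also hold endoplasmic reticulum (ER) bodies, compartments packed with the beta-glucosidase PYK10 that are linked to defence against feeding animals and microbes. Flower, pollen and meiosis genes are known mainly from later stages.

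The labelled tissue was checked against organ markers, of which only some have a probe set of their own here. The leaf markers AT2G26500, LHCB4.1 and RCA all lay above the 99th percentile of signal, and they are 3 of 12 markers listed. Among the 5 measured of 16 root markers, PYK10 averaged 13.29 ± 0.24 (SD, n = 3) and AT4G30170 averaged 11.01 ± 0.27 (SD, n = 3). The root hair expansins EXPA18 and EXPA7, which loosen cell walls, averaged 7.76 and 7.13, at percentiles 70.0 and 59.9 of signal. The root marker AT2G39430 averaged 7.63, at percentile 68.0. The pollen markers AT59 and AT5G07430 averaged 4.06 and 3.76, both in the dimmest 25%, and they are 2 of 12 markers listed. None of the 11 seed markers was measured in this way.

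The brightest named gene was psbM, a small subunit of photosystem II encoded in the plastid, with log2 signals of 13.88, 13.80 and 13.93 in replicates 1, 2 and 3. It was followed by the plastid gene atpE, an ATP synthase subunit, with 13.73, 13.91 and 13.75. Among the 20 brightest named genes 8 have a symbol, and the other 12 carry only a locus code and are given no role here. The 8 are psbM, atpE, the peroxidase PRXR1, the ATP synthase subunit gene atpB, PYK10, the glycolytic enzyme GAPC2, the cytosolic isocitrate dehydrogenase cICDH and the ubiquitin-conjugating enzyme UBC28. Their means ran down to 12.88 for UBC28, and the 20 genes had SDs between 0.01 and 0.42.

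Genes were grouped, mostly by symbol, into 45 lists by function or family. Some members, such as AT1G76640 and AT1G54410, carry only a locus code. The lists hold 597 genes in all. Of these, 103 (17.3%) lay in the brightest decile, against 7.57% of all named genes, and 134 (22.4%) lay in the dimmest 25%, against 29.7% of all named genes. The median percentile of signal was 55.3 for the members and 44.9 for all named genes. Genes with a symbol are better studied than the rest, and no list stands for all genes of its function.

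**Figure D1:**
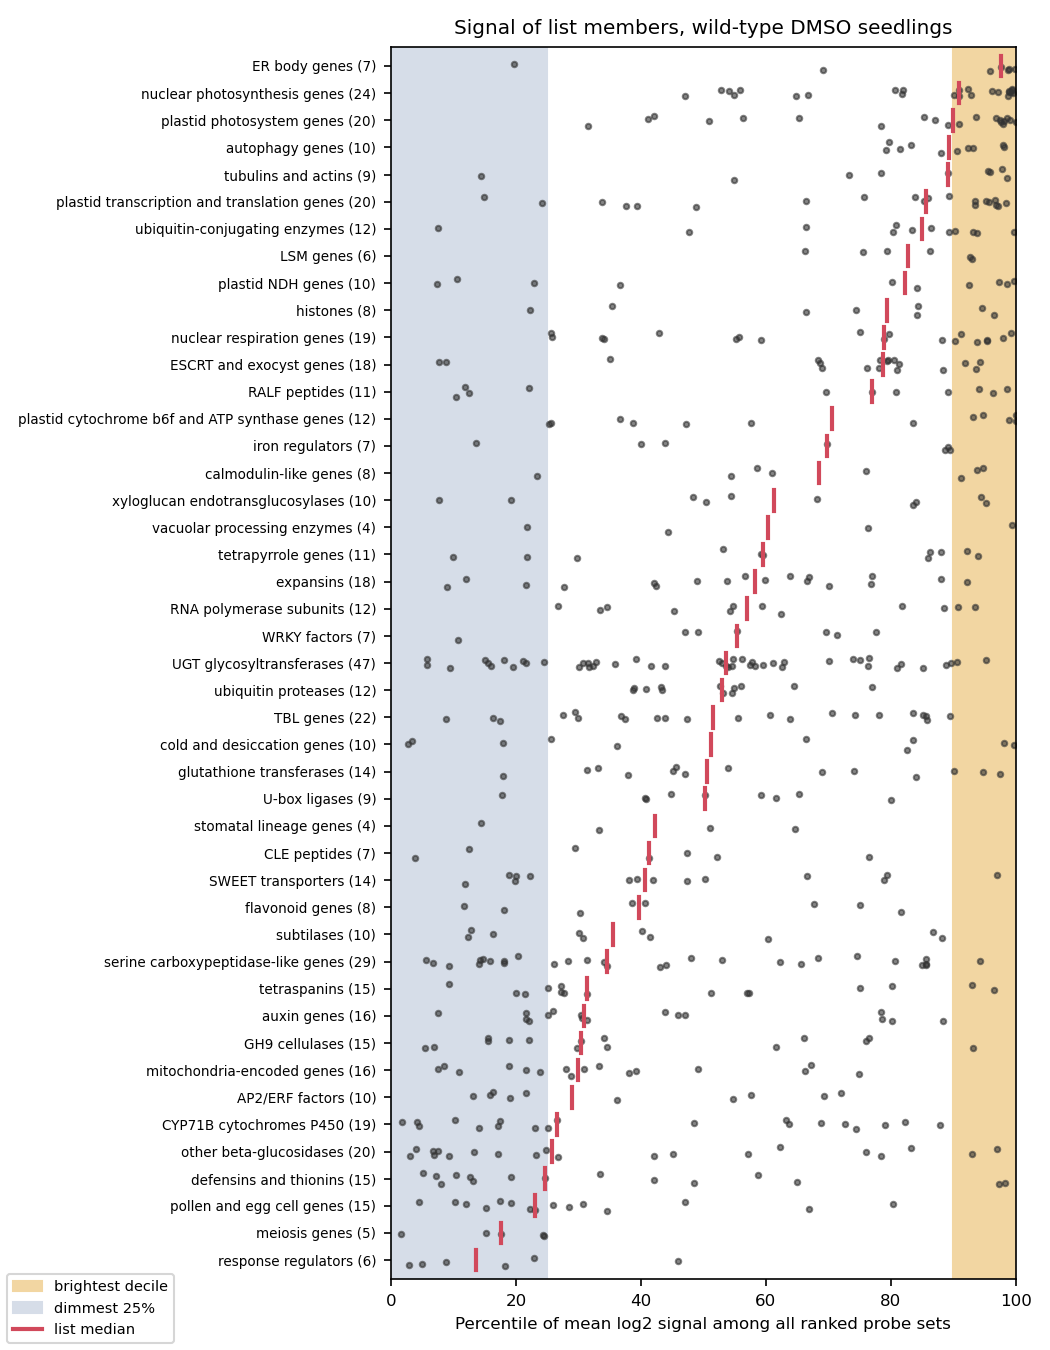
Percentile of mean log2 signal (x axis) of the members of the 45 gene lists (rows, with the number of members), in order of list median. Points are genes, red bars are list medians, and shading marks the brightest decile and the dimmest 25%. ER body and photosynthesis lists stand at the top, and response regulators and meiosis genes at the bottom have 5 of 6 and 5 of 5 members in the dimmest 25%.

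Nuclear photosynthesis genes were the brightest of the larger lists, with 14 of 24 in the brightest decile, none in the dimmest 25% and a median at percentile 90.8. The antenna protein gene LHCB4.1 had log2 signals of 12.64, 12.50 and 12.30 in replicates 1, 2 and 3. RCA, which encodes Rubisco activase, had 12.41, 12.50 and 12.09, and the photosystem I subunit gene PSAE-1 had 12.40, 12.43 and 12.15. Each of these genes varied by less than 0.5 log2 units over the 3 arrays. The Calvin cycle enzymes PRK and SBPASE averaged 10.69 ± 0.27 and 9.60 ± 0.18 (SD, n = 3). Genes for photosystem assembly or repair were spread out, with PSB27 at 9.84, LPA2 at 8.52, LPA1 at 6.88, PAM68 at 6.76 and LPA19 at 6.67. Within small families the signals of members stood far apart, as LHCB4.2 averaged 11.96 and LHCB4.3 averaged 7.43, and ATPC1 averaged 11.80 and ATPC2 averaged 6.25.

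Plastid-encoded photosystem genes had 10 of 20 members in the brightest decile and none in the dimmest 25%. Below psbM came psbF, a cytochrome b559 subunit, at 12.11 ± 0.22, and the photosystem I core gene psaB at 11.72 ± 0.62 (SD, n = 3). The core gene psaA, which lies in one operon with psaB, read 5.75 ± 0.36, and psbT, which lies in one operon with psbB and psbH, read 4.89 ± 0.31 (SD, n = 3). In the cytochrome b6f and ATP synthase list, atpE and atpB averaged 13.79 and 13.42, whereas atpI averaged 4.42 and petD averaged 4.44. Such gaps, within or between transcription units, lie between probe sets of different genes and were not read as RNA amounts. Their cause was not tested. In the list for the plastid NADH dehydrogenase-like complex, 4 of 10 members lay in the brightest decile and 3 in the dimmest 25%. Of that list, ndhI averaged 12.66 and ndhF averaged 3.54. Plastid ribosomal protein and polymerase genes had 8 of 20 members in the brightest decile, from rpl32 at 11.61 to the polymerase gene rpoB at 3.86.

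Mitochondria-encoded genes had a median percentile of signal of 29.9, against 44.9 for all named genes. None of the 16 lay in the brightest decile, against 7.57% of all named genes, and a list this short can hold none at that share. In the dimmest 25% were 6 of the 16 (37.5%), not far from the 29.7% of all named genes. The brightest of the 16 was ccb382, a cytochrome c maturation gene, at 8.07 ± 0.05 (SD, n = 3). The cytochrome oxidase gene cox1 read 7.53, 7.37 and 7.66 in replicates 1, 2 and 3, and the maturase gene matR read 3.58, 3.66 and 3.41. The complex I gene nad1 is covered by 7 probe sets whose means ran from 3.39 to 5.59. The cause of this range was not tested. Nuclear genes of respiration were brighter, with 7 of 19 in the brightest decile, led by the cytochrome c gene CYTC-1 at 12.16 ± 0.20 and the processing peptidase gene MPPBETA at 11.37 ± 0.32 (SD, n = 3).

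**Figure D2:**
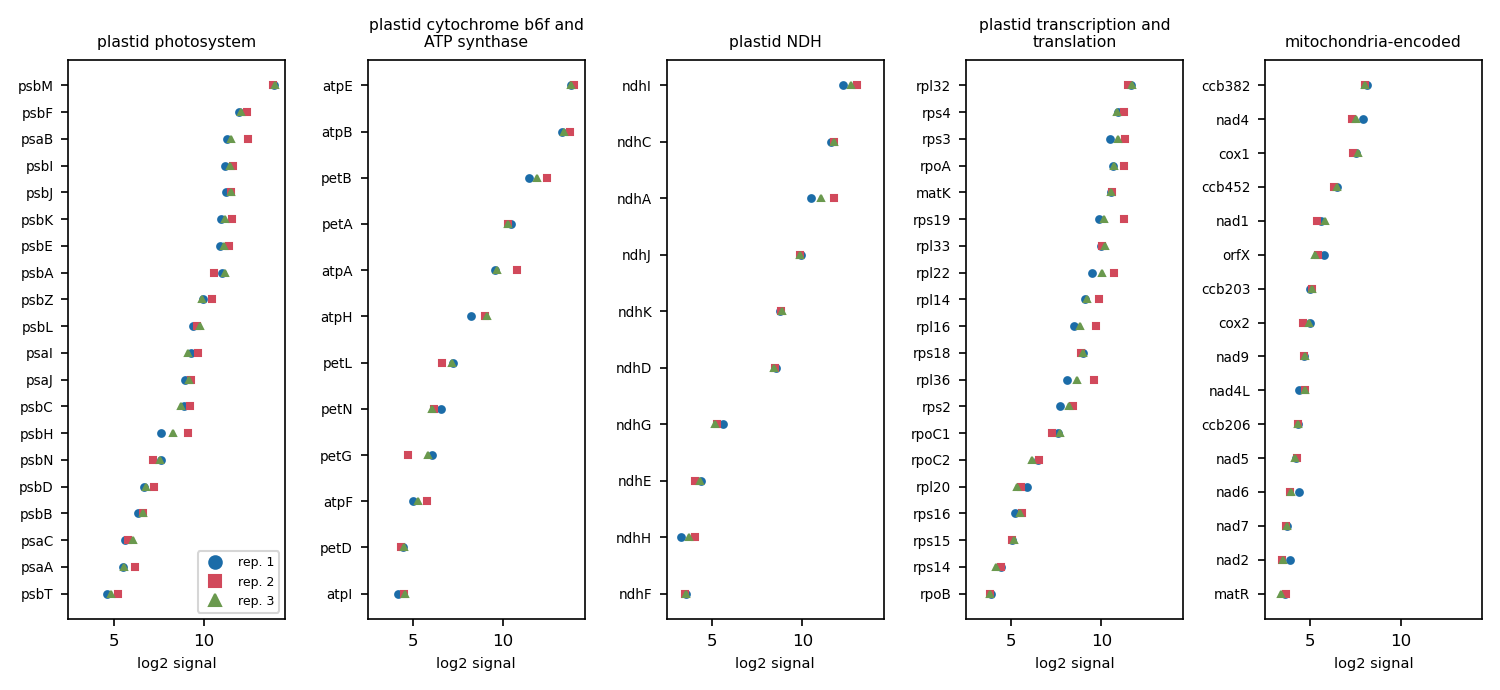
log2 signal (x axes) of each plastid-encoded and mitochondria-encoded gene on the 3 arrays, by complex, in order of mean signal. Symbols mark the replicates. Plastid genes reach 13.87 (psbM) and mitochondrial genes reach 8.07 (ccb382), and in many plastid genes the symbol of replicate 2 lies to the right.

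ER body genes had the highest median of all lists, at percentile 97.6, with 5 of 7 in the brightest decile. PYK10 had log2 signals of 13.03, 13.49 and 13.36 in replicates 1, 2 and 3. The lectins JAL34, JAL33 and JAL22, partners of PYK10 after tissue damage, averaged 11.98, 11.84 and 11.23. NAI2, needed to form the bodies, averaged 10.60 ± 0.30, and NAI1, the transcription factor that drives these genes, averaged 7.71 ± 0.06 (SD, n = 3). The lectin gene JAL23 was the exception, at 4.09 ± 0.14 (SD, n = 3). Other beta-glucosidases had 10 of 20 in the dimmest 25%, and 2, BGLU44 at 10.95 and BGLU28 at 9.98, in the brightest decile.

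Several housekeeping lists stood high. Autophagy genes, mostly ATG8 ubiquitin-like proteins that coat forming autophagosomes, had 5 of 10 in the brightest decile, led by APG8H at 11.41 and ATG8F at 11.37. Tubulins and actins had 4 of 9, led by TUA6 at 11.68 ± 0.20 (SD, n = 3), whereas ACT12, an actin known from pollen, read 3.83, 3.89 and 3.83. Ubiquitin-conjugating enzymes had 4 of 12, with UBC28 at 12.88. The 4 vacuolar processing enzymes, which are proteases, were spread out, with 1 in the brightest decile and 1 in the dimmest 25%. GAMMA-VPE, known from vegetative organs, averaged 12.37 ± 0.27, and DELTA-VPE, known from the seed coat, averaged 4.21 ± 0.02 (SD, n = 3).

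The lists of SWEET carriers, expansins, xyloglucan-modifying enzymes, GH9 endoglucanases, UGT glycosyltransferases, and defensins and thionins each had 1 or 2 members in the brightest decile. Their shares ran from 4.26% for UGT glycosyltransferases to 20% for xyloglucan-modifying enzymes, against 7.57% of all named genes. Shares of 5.56% to 7.14%, for expansins, GH9 endoglucanases and SWEET carriers, lie near that of all named genes. Among 14 SWEET sugar carriers SWEET11, a carrier of phloem loading, averaged 10.97 ± 0.21 (SD, n = 3), and the next brightest was SWEET17, a vacuolar fructose carrier, at 8.41. Expansins were led by EXPA4 at 9.83, and xyloglucan-modifying enzymes by EXGT-A3 at 10.39 and XTH19 at 10.24. The 1 of 15 endoglucanases of family GH9 that reached the brightest decile was GH9B7, at 10.00. Of 47 UGT glycosyltransferases 2 reached it, UGT72E1 at 10.40 and UGT72E2 at 9.56, both known to glucosylate monolignols. Among defensins and thionins LCR68 and LCR69 averaged 11.51 and 11.10, while 8 of the 15 members lay in the dimmest 25%.

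Genes of reproduction were among the dimmest groups. All 5 meiosis genes lay in the dimmest 25%, among them ATSPO11-1, which makes meiotic double-strand breaks, at 4.36, and ZYP1b of the synaptonemal complex at 3.23. Pollen and egg cell genes had 8 of 15 in the dimmest 25%, among them the pollen tube receptor kinases ANX1 at 3.98 and ANX2 at 3.75 and the sperm histone MGH3 at 4.24. SETH3 and SETH2 stood apart from these, at 8.49 and 7.56.

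Developmental and hormone regulators differed in signal within their lists. No member of the response regulator, CLE peptide, stomatal lineage, auxin or flavonoid lists lay in the brightest decile. Response regulators of cytokinin signalling had the lowest median of the lists, at percentile 13.6, with 5 of 6 in the dimmest 25%, and RR16 alone was brighter, at 6.79, 5.50 and 6.20. The stem cell peptide gene CLV3 averaged 3.76 ± 0.07 and CLE41, a vascular peptide gene, averaged 8.18 ± 0.23 (SD, n = 3). Of the stomatal lineage regulators FMA, SPCH and MUTE averaged 7.43, 5.05 and 3.84. Among auxin genes the conjugating enzyme GH3.17 averaged 9.26 ± 0.13, and the synthesis genes YUC2 and YUC4 averaged 6.25 and 3.55. Among flavonoid genes the proanthocyanidin gene BAN, known from the seed coat, averaged 3.73.

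Pseudogenes give a measure of the dim end. Of 989 genes that the RefSeq annotation calls pseudogenes 857 (86.7%) lay in the dimmest 25% and none in the brightest decile, against 3076 of 12293 protein-coding genes in the dimmest 25%. The brightest pseudogene was AT2G04460, at 8.75. Their median log2 signal was 3.63, against 6.40 for protein-coding genes. A dim signal here cannot be told apart from background, since no detection call was used.

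The 3 arrays differed little for most probe sets. The median SD was 0.16 log2 units, and 96.2% of probe sets had an SD under 0.5. The median SD was 0.08 in the dimmest decile of probe sets and about 0.20 from the middle of the range upward. Across probe sets, which are not independent, Pearson correlations were 0.995 between replicates 1 and 3, 0.987 between 2 and 3, and 0.983 between 1 and 2. More than 2-fold differences numbered 62 between replicates 1 and 3, 231 between 2 and 3, and 556 between 1 and 2. Replicate 2 carried 51.3% of the squared deviation, replicate 1 carried 30.0% and replicate 3 carried 18.7%. Over 2 arrays, the median SD was 0.09 without replicate 2, 0.14 without replicate 1 and 0.16 without replicate 3. An SD over 2 arrays has a lower median than one over 3, so these values were not set against that of all 3 arrays.

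Control probe sets differed between the arrays as well. The 18 hybridisation controls were lowest in replicate 2 in all 18 cases, with medians of 9.42, 8.80 and 9.37 in replicates 1, 2 and 3. The 24 poly-A controls were lowest in replicate 2 in 20 cases and highest in replicate 3 in 20, with medians of 6.28, 6.02 and 6.99. These probe sets are not independent, since several cover each of bioB, bioC, bioD and cre, and each of dap, lys, phe and thr. The difference between 3′ and 5′ control probe sets was smallest in replicate 2 for 4 of 6 pairs. The pairs cover actin, GAPDH and ubiquitin, each more than once. For the first GAPDH pair the difference was 1.57, 1.01 and 1.38. The part of these differences in the results on spread was not tested.

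**Figure D3:**
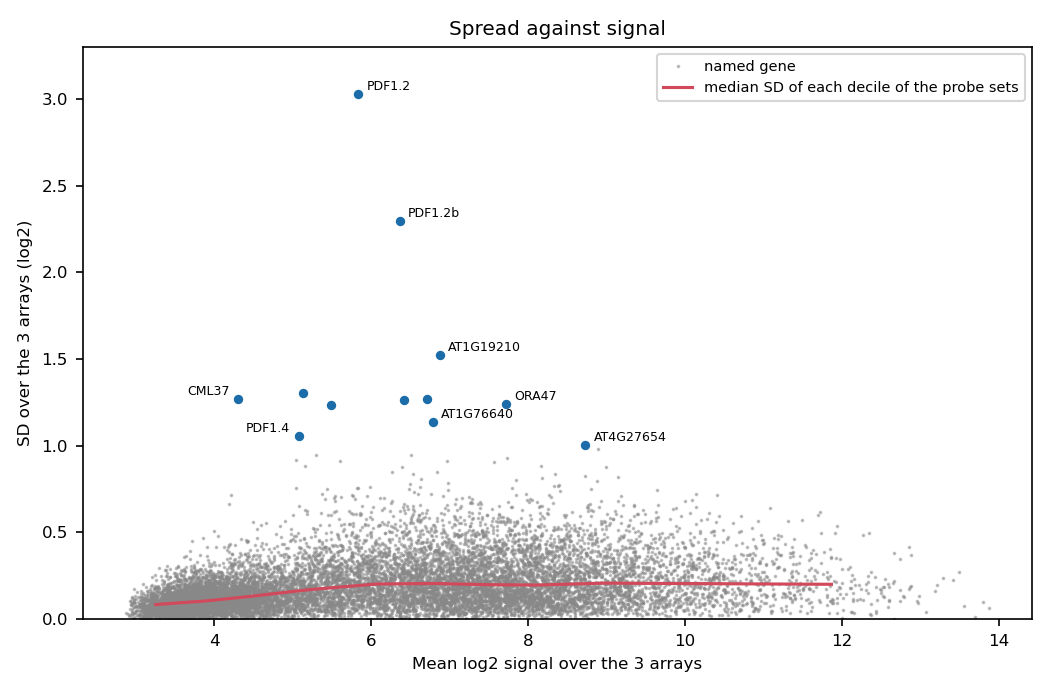
SD over the 3 arrays (y axis, log2) against mean log2 signal (x axis) of the named genes, with the 12 highest SDs in blue, 8 of them labelled. The red line joins the median SD of each decile of the probe sets, and PDF1.2 and PDF1.2b stand apart with SDs of 3.03 and 2.30.

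The most variable gene was PDF1.2, a plant defensin known as a marker of jasmonate and ethylene signalling. Its log2 signals were 4.33, 3.86 and 9.32 in replicates 1, 2 and 3. Its close relative PDF1.2b had 5.14, 4.94 and 9.01. Both genes were high in replicate 3 alone, and PDF1.2 was under 4.40, the limit of the dimmest 25%, in the other two. The probe set of PDF1.2b carries a suffix that marks possible cross-hybridisation, so that the 2 rows may share signal. Another defensin, PDF1.4, had 6.25, 4.20 and 4.78 and was high in replicate 1 instead. The other defensins and thionins had SDs of at most 0.28.

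The other genes of the variable end had another order of arrays. Of the 20 named genes with the highest SD, replicate 1 was highest in 18 and replicate 2 lowest in 19. ORA47, an AP2/ERF transcription factor of jasmonate responses, had 9.13, 6.80 and 7.23 in replicates 1, 2 and 3. The calcium sensor gene CML37 had 5.76, 3.39 and 3.78, and AT1G76640, which the annotation also names CML39, had 7.74, 5.53 and 7.09. These genes shared the order of arrays but not the place of replicate 3, which lay near replicate 2 for ORA47 and CML37 and near replicate 1 for AT1G76640. Outside these 20, GRX480, a glutaredoxin of salicylate signalling, had 6.75, 5.23 and 5.99. The remaining genes among the 20 carry only a locus code, the first being AT1G19210 with 8.56, 5.60 and 6.45 and AT3G01830 with 6.43, 3.82 and 5.13.

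**Figure D4:**
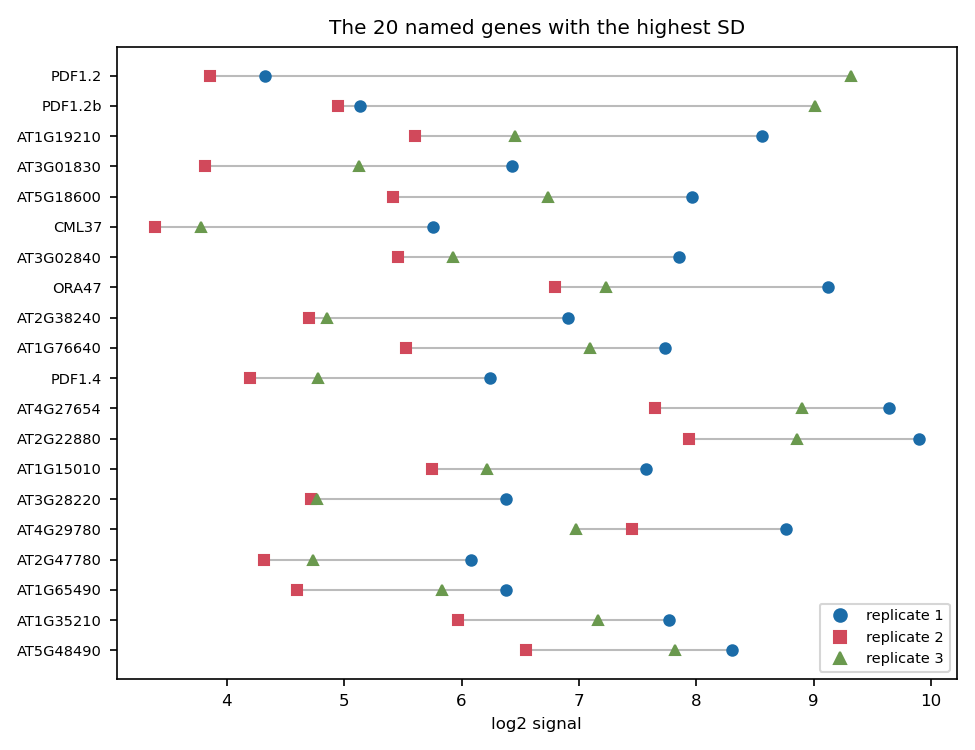
log2 signal (x axis) of the 20 named genes with the highest SD on each array, with symbols for the replicates and a grey line over the range. Replicate 1 is highest in 18 genes, and PDF1.2 and PDF1.2b are high in replicate 3 only.

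Among the 100 named genes with the highest SD, from 0.66 upward, the order with replicate 1 highest and replicate 2 lowest occurred in 64, and in 23.9% of all named genes. Replicate 2 was the array farthest from the median of the 3 in 71 of the 100 genes, below it in 50 and above it in 21, against 48.7%, 26.0% and 22.7% of all named genes. When replicate 2 was left out, 35 of these 100 genes were still among the 100 most variable, and 50 and 80 were when replicate 1 or 3 was left out. Of the 100, 5 lay in the brightest decile, against 7.57% of all named genes, and 3 in the dimmest 25%, against 29.7%. None is a pseudogene, against 989 of the 13355 named genes, and 86.7% of pseudogenes lay in the dimmest 25%. The plastid encodes 5, for which no share over all named genes is given. Only 2 pairs of the 100 are neighbours in the gene order of the annotation, AT3G15760 with AT3G15770 and AT4G27654 with AT4G27657. The 10 most variable genes of the brightest 25% all had replicate 1 highest and replicate 2 lowest.

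Of the 597 list members 77 (12.9%) lay in the most variable decile, which begins at an SD of 0.38, against 9.4% of all named genes. All 8 genes on the calmodulin-like list did, with a median SD of 0.60. The list was chosen with earlier results known and holds AT1G76640, which has only a locus code here. The count therefore describes the list and not all calmodulin-like genes. The 8 are calcium sensors, and CML38, CML42 and CML23 were bright as well, at 10.31, 10.11 and 9.66. CML38 had 10.95, 9.73 and 10.24 in replicates 1, 2 and 3, and CML23 had 10.10, 8.90 and 9.97. All 8 genes lay above their mean in replicate 1 and below it in replicate 2. Without replicate 2 the count was 4 of 8, and without replicate 1 it was 5 of 8.

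RALF peptides, small secreted signals that bind receptor kinases and alkalinise the cell wall, had 6 of 11 members in the most variable decile. RALFL33 had 12.04, 11.00 and 12.05 in replicates 1, 2 and 3, and RALFL32 had 9.74, 8.60 and 9.71. Replicates 1 and 3 were close in both, and replicate 2 stood about 1 log2 unit lower. RALFL34 was bright and stable, at 10.18 ± 0.09 (SD, n = 3), and the 4 members in the dimmest 25% had SDs of at most 0.19. LSM genes, whose small proteins form rings in RNA splicing and decay, had 3 of 6 in the most variable decile and were lowest in replicate 2 in all 6, as in LSM3A with 8.68, 7.36 and 8.31. Without replicate 2 the count was 1 of 11 for RALF peptides and 1 of 6 for LSM genes.

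Several other lists were displaced together in replicate 2. Of the 9 ATG8 genes all were lowest there, by a median of 0.32 below the mean, and the count of autophagy genes in the most variable decile was 4 of 10 with all arrays and 0 without replicate 2. Their SDs of 0.41 to 0.42 lay just above the limit of 0.38, and with all arrays the count was also 0 without the dimmest 25% of probe sets and 0 with the SD set against probe sets of like signal. Replicate 2 was lowest in 42.3% and highest in 37.0% of all named genes. Glutathione transferases, which detoxify, were lowest there in 12 of 14, and histones in 7 of 8. Ubiquitin proteases were highest there in 11 of 12, as in UBP15 with 6.45, 7.16 and 6.49 in replicates 1, 2 and 3. Plastid photosystem genes were highest there in 14 of 20, as in psbH with 7.60, 9.13 and 8.27. Among plastid genes the ribosomal protein gene rps19 had 9.87, 11.22 and 10.12, atpA had 9.55, 10.79 and 9.67, and petG of the cytochrome complex went the other way with 6.07, 4.74 and 5.83.

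**Figure D5:**
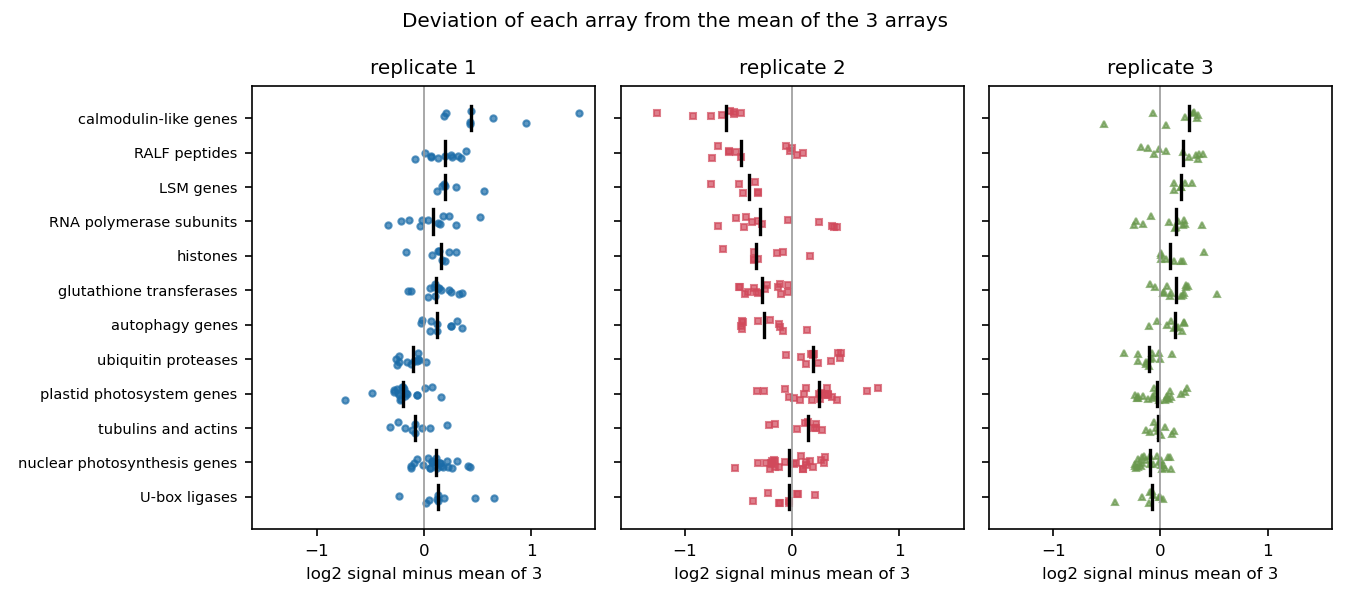
Deviation of each array from the mean of the 3 arrays (x axes, log2 units) for the members of 12 gene lists (rows), with 1 panel for each replicate and black bars at list medians. In replicate 2 the medians of calmodulin-like genes, RALF peptides and LSM genes lie at -0.62, -0.48 and -0.40, and that of ubiquitin proteases at 0.20.

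Lists of subunits also held members that went opposite ways in replicate 2. The largest 2 subunits of RNA polymerases I and III, which form the catalytic core (NRPA1, NRPA2, NRPC1 and NRPC2), were all 4 highest there, by 0.25 to 0.42 above the mean. Of the other 8 subunits on the list, which are named for RNA polymerases II, IV and V, 7 were lowest there and none highest, by a median of 0.40 below the mean. NRPA2 had 6.95, 7.70 and 7.19 in replicates 1, 2 and 3, and NRPD7 had 5.71, 4.49 and 5.35. In membrane trafficking, 6 of 7 exocyst genes were highest in replicate 2 and 9 of 11 ESCRT genes lowest. Both splits were chosen after the values were seen.

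Stress lists were mixed. Of 10 cold and desiccation genes 3 lay in the most variable decile, among them the cold-induced COR15B with 8.26, 7.07 and 7.28 and the dehydrin LTI30 with 9.40, 8.12 and 8.78 in replicates 1, 2 and 3. In the same list the dehydrin AT1G54410 averaged 12.67 and COR47 averaged 11.41 ± 0.12 (SD, n = 3). Among WRKY factors 3 of 7 were in that decile, and WRKY53, a senescence regulator, with 5.81, 6.40 and 7.06, had an order opposite to that of WRKY22, with 6.86, 6.03 and 5.86. The ubiquitin ligase genes PUB22 and PUB23, which dampen immune signalling, were highest in replicate 1, with 8.94, 8.10 and 8.35 and with 7.75, 6.87 and 6.67. Without replicate 1 the counts in that decile were 1 of 10 cold and desiccation genes, 1 of 7 WRKY factors and 0 of 9 U-box ligases. With all arrays the ligases had 2. These lists are short, and 9.4% of all named genes lay in that decile. Counts for these lists without replicate 2 or 3 are not given here. STOMAGEN, a peptide that promotes stomata, had 7.13, 5.73 and 6.80, and the anthocyanin gene DFR had 6.31, 5.27 and 5.02.

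No member lay in the most variable decile in 16 of the 45 lists, among them tubulins and actins (9 members), ubiquitin-conjugating enzymes (12), membrane trafficking genes (18), other beta-glucosidases (20) and serine carboxypeptidase-like genes (29). At the 9.4% of all named genes a short list can hold none, and dim lists seldom reach that decile, since it holds 0 to 2.20% of the probe sets in each of the 3 dimmest deciles of signal. These lists were therefore not read as more stable than others. Of the genes in the brightest 25% the least variable were AT5G64250, with 8.47 on each array, and AT1G54410, with an SD of 0.00 at a mean of 12.67. UBC19 averaged 8.76 ± 0.01 (SD, n = 3). The lowest SDs have no order of their own, since 941 probe sets (4.14%) held exactly the same value on at least 2 arrays and 61 held it on all 3.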

How the data were processed

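RNA of 3 wild-type samples was measured on 1-colour ATH1 arrays. The authors deposited log2 signals that, per the submitters' processing notes, come from RMA; its software and version were not given in the sources used here. Values ran from 2.80 to 14.32, and the array medians were 6.44, 6.50 and 6.45. They were used as deposited, without further normalization, filter or detection call. Arrays carry no count depth, and their number limits the precision.

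Probe sets were named from the platform's gene table: 13513 named 1 gene, 503 named several and stayed unassigned, and 8730 have no name here. Of the 13513, 13436 matched the RefSeq table of the TAIR10.1 assembly, used for symbols, gene class and gene order only. Of the 13355 genes, 283 rest on a probe set with a suffix that marks possible cross-hybridisation.

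Means, SDs and percentiles over the 22746 probe sets were computed in Python 3.11.15 with pandas 2.3.3 and numpy 2.4.6, and checked on simulated data. Brightest decile, dimmest 25% and most variable decile are cut over all ranked probe sets. No test was made. Genes to name were drawn from the 20 with the highest mean and the 20 with the highest SD. The 10 highest and 10 lowest SDs of the brightest 25% and all measured organ markers were added. So were the 3 highest means, the 2 highest SDs and the lowest mean of each list. Not all of these genes are printed. Other list members named in the text were picked to show a list's range. The members and lists were chosen with earlier results of these data known, and the lists were drawn mostly from gene symbols. The alternatives changed the probe set used, the mean, the normalization, the filter and the arrays. No promoter sequence was used here, and some genes are not reported here.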

Additional observations from a re-analysis of the deposited data

How the results depend on the processing

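Over the 597 list members, between 100 and 106 lay in the brightest decile without 1 of the replicates (103 with all), and between 131 and 139 lay in the dimmest 25% (134 with all). Averaging all probe sets of a gene, leaving out those with a cross-hybridisation suffix, the median of the arrays and a further quantile normalization gave 102 to 103 and 132 to 135. The members' median percentile of signal, 55.3 with all arrays, was 55.8 without probe sets carrying a cross-hybridisation suffix and ran from 55.7 to 56.4 without 1 of the replicates, which moved it by more than the spread between arrays; the cause was not tested. The count in the most variable decile, 77, lay between 58 and 83 under all its alternatives. The share of squared deviation in replicate 2 was 51.4% after quantile normalization and 52.9% without the dimmest 25%.

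Counts of variable members depended on single arrays. Without 1 of the replicates they ran from 4 to 8 for calmodulin-like genes, from 1 to 6 for RALF peptides, from 1 to 3 for LSM genes and from 0 to 4 for autophagy genes. For autophagy genes the count was 0 without the probe sets below the 25th percentile and 0 when the SD was set against probe sets of like signal, where 4 lay in the decile otherwise; the cause was not tested. Replicate 2 was farthest from the median in 57 to 73 of the 100 most variable genes under the alternatives, in 54 per 100 of the top 50 and in 83 per 100 of the top 500. Of 1460 recomputed means of named genes, 1457 moved by no more than 1 SD. The other 3 were genes with an SD near 0. For the median of the arrays and for means without 1 of the replicates this outcome was fixed in advance. With 3 arrays neither can lie as far as 1 SD from the mean. Only the further quantile normalization could pass that limit, so the count is no measure of how stable the means are.

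No paired analysis was possible because only 1 group was used and no test was made. A search for promoter motifs by decile was not run, since no sequence was used here. The limits are the number of arrays, the lack of a detection call and the dependence of signal on probes.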
